A study of Mus musculus with 12 samples.

Results

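The effect of Kctd10 knockdown was examined in undifferentiated myoblasts, in the 3 libraries whose titles give D0 and siKctd10 and the 3 whose titles give D0 and siCont, called siControl here, which are 6 of the 12 libraries of the series. They were selected by their titles. All came from C2C12, an established mouse myoblast line that fuses into multinucleated myotubes when serum is lowered. The cells received a Kctd10 siRNA (siKctd10) or a non-targeting siRNA (siControl), stayed below confluence in DMEM with 10% fetal bovine serum, and were harvested after 48 h of siRNA, at D0. In the other 6 libraries the cells had the same siRNAs and were moved to medium with 2% horse serum, a state labelled D2. The labels state the same siRNA time for these cells although the medium was changed after siRNA, so the D2 harvest time is not settled. All cells thus carried an siRNA, no untreated cells were compared, and 1 siRNA sequence stood for the knockdown. Poly(A) RNA was sequenced, and expression is given in TPM, a length-corrected share of a library's transcripts. The labels do not tie the 3 libraries of a group to separate cultures, so each p-value measures the spread between these libraries, which may be technical.

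KCTD10 is a BTB-domain protein that brings substrates to CUL3 ubiquitin ligases, and the small GTPase RHOB is a described substrate. The series' title concerns ubiquitin, the actin cytoskeleton and cell fusion. Actin also governs transcription in myoblasts. Monomeric actin holds the coactivators MRTF-A and MRTF-B away from the serum response factor SRF, and filament tension favours nuclear YAP, which acts on TEAD factors, so contractile and matricellular genes are widely used readouts of the actin state.

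The siRNAs are shown because the guide strand, the strand loaded into Argonaute, decides which transcripts are cut and which are matched by the seed alone. The guides were derived as the reverse complement of the sense strands given in the series' design text. Capitals in the guides mark the seed, bases 2 to 8 from the 5′ end. Every base of the target site is in capitals because all 19 bases matched.
siKctd10 guide: uUAUCGUCagaauugcugg
non-targeting guide: uCAGAAAAcauguaaacca
Kctd10 target site: CCAGCAATTCTGACGATAA
In GENCODE M21 transcripts (GRCm38, which is mm10) the target site lies at chr5:114367390-114368345 on the minus strand, in the coding sequence of Kctd10. It crosses the junction of exon 5 (4 bases) and exon 6 (15 bases) in ENSMUST00000001125.5 and ENSMUST00000102581.10. The site was found in transcripts of 1 gene, and the non-targeting sequence in transcripts of 0 genes.

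The 6 D0 libraries held between 13.34 and 17.55 M (M, 1e6) estimated read pairs assigned to transcripts, and 12024 to 12162 genes reached a TPM of 1 in each. The first principal component of these libraries (27.5% of the variance) separated the siRNAs, and siKctd10 library 3 stood apart at 55.7, against 3.5 and 13.7 for siKctd10 libraries 1 and 2 and -31.8 to -17.1 for siControl. On the second component (20.2%) the same library lay at 27.8, above the siControl libraries at 12.6 to 15.5, while siKctd10 libraries 1 and 2 lay at -38.7 and -30.7. The myoblast identity of the cells was visible in both groups, with Myod1 at 75.4, 74.2 and 75.9 TPM in siControl and 79.4, 80.6 and 79.0 TPM in siKctd10, and Myf5, Pax7, Des, Cdh15 and Itga7 expressed in all 6. Differentiation had not started in the D0 cultures to any large extent. Ckm, muscle creatine kinase, was listed at 0 in each siControl library and at most 0.584 TPM in siKctd10, and Myog was at 10.1 to 14.3 TPM in siControl, against a D2 siControl mean of 324 TPM.

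Kctd10 itself (chr5:114363567-114380508, minus strand, GRCm38) was strongly reduced. It was at 272, 258 and 269 TPM in siControl libraries 1, 2 and 3 and at 24.8, 24.5 and 19.97 TPM in siKctd10 libraries 1, 2 and 3. The groups were far apart, with 8.66% of the control level remaining in its 2 deposited transcripts combined. The log2 fold change was -3.48 (SE 0.11, limma adjusted p = 6.8e-07), and the two-sided exact permutation test on the 3 and 3 libraries gave p = 0.1, the smallest that this design allows.

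Across the transcriptome, 320 of 13077 genes passed a limma adjusted p threshold of 0.05 and are termed called (2.45% of genes tested), 194 higher (1.48%) and 126 lower (0.964%) with siKctd10. The changes were mostly small. The median absolute log2 fold change of called genes was 0.72, 69 of them changed by more than 2-fold on the log2(TPM + 1) scale, and the median of all genes was 0.045. The share of called genes that were higher was 60.6%, but it was 47.6% of 395 genes after median-ratio scaling, 47.4% of 306 after quantile normalization and 43.5% of 315 with voom, so the balance of rises and falls depended on the scaling. The groups did not overlap for any of the 320, while 23.2% of all genes tested had no overlap. An unadjusted p under 0.05, in either direction, was reached by 2071 of the 13077 genes. Of the 11963 tested genes with an annotated 3′ UTR, 43.5% had a log2 fold change below 0. These are the backgrounds for such counts in the lists below. The count was 118, 135 and 174 without siControl library 1, 2 and 3, 210, 166 and 224 without siKctd10 library 1, 2 and 3, and 72 with only the D0 libraries in the fit.

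Where a gene had more than 1 transcript, its TPM could differ widely among the 3 libraries of a group. Rac1, a small GTPase with 2 transcripts, was at 685, 718 and 715 TPM in siControl and at 22.2, 12.5 and 680 TPM in siKctd10 libraries 1, 2 and 3. Its fitted change was therefore uncertain and not called (-3.56 on the log2 scale with an SE of 2.45, limma adjusted p = 0.52). Genes with 1 deposited transcript that shared no exon base with any other transcript, termed single-transcript genes, therefore lead the account. There were 3420 of them, of which 128 were called (3.74%), 66 higher (1.93%) and 62 lower (1.81%). Of the 9657 other genes 192 were called (1.99%). Of 99 called genes followed one by one, 42 kept their call without each of the 6 D0 libraries in turn. These were Kctd10, 4833439L19Rik, AU021092, Acta2, Adamts5, Aif1l, BC025446, Capza1, Cavin2, Ccn2, Ccn3, Cd164, Ckb, Cnn2, Col4a2, Cth, Dkk2, Dstn, Fblim1, Fdft1, Gap43, Gbp2, Hspd1, Idi1, Igfbp5, Itga3, Kdelc2, Mboat1, Myl9, Ngfr, Plet1, Prss37, Scd1, Scd2, Stmn2, Stmn4, Tagln, Tigit, Trib2, Trim37, Tubb3 and Ube2j1. The other 57 each lost the call without at least 1 D0 library. Of the 42, 26 also kept it in every other alternative. With only the D0 libraries in the fit, 32 of the 99 kept their call and 67 lost it, Gap43, Cnn2, Dstn, Ckb and Cavin2 among them.

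**Figure D1:**
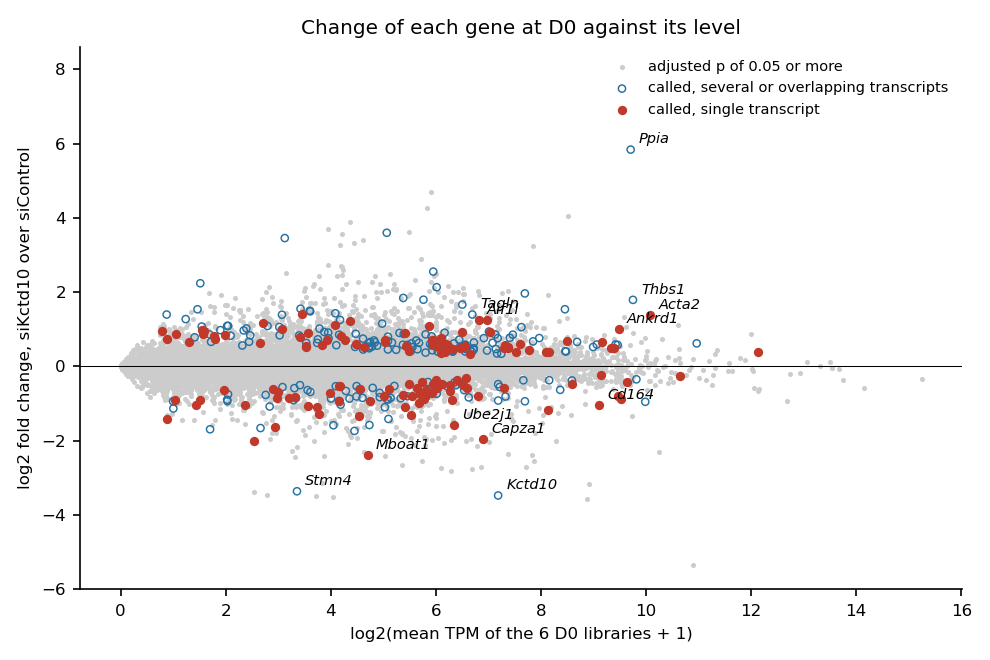
Each point is 1 of the 13077 genes tested at D0. The x axis is log2 of the mean TPM of the 6 D0 libraries plus 1 and the y axis the log2 fold change, siKctd10 over siControl. Red points are called single-transcript genes, blue circles are called genes with several or overlapping transcripts, and grey points are not called. Kctd10 (-3.48), Mboat1 (-2.40) and Capza1 (-1.96) lie low among called genes of middle or high level, and the highest called point, Ppia (5.84), has 2 transcripts.

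Among single-transcript genes the largest fall was that of Mboat1, an acyltransferase that rebuilds membrane phospholipids. It was at 43.9, 41.8 and 42.6 TPM in siControl and at 6.41, 8.92 and 6.78 TPM in siKctd10 libraries. All siKctd10 libraries lay far below all siControl libraries, leaving 17.2% of the control level (log2 fold change -2.40, SE 0.15, limma adjusted p = 5.9e-05). Capza1, the alpha 1 subunit of the capping protein that closes the barbed end of actin filaments (chr3:104822779-104864505, minus strand, GRCm38), was at 177, 197 and 194 TPM in siControl and at 43.9, 60.0 and 41.6 TPM in siKctd10. The lowest siControl library was above the highest siKctd10 library by more than 2-fold (-1.96 on the log2 scale with an SE of 0.16, limma adjusted p = 0.00028). Ube2j1, a ubiquitin-conjugating enzyme of the endoplasmic reticulum membrane, was at 116, 118 and 129 TPM in siControl and at 41.8, 42.2 and 35.6 TPM in siKctd10. Its libraries within a group differed little beside the distance between the groups (-1.58, SE 0.10, limma adjusted p = 5.9e-05).

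Other single-transcript falls were of varied function. Gap43, a growth cone protein of neurons, was at 75.4, 60.9 and 56.6 TPM in siControl and at 30.1, 25.8 and 20.7 TPM in siKctd10, with no overlap (-1.30, SE 0.15, limma adjusted p = 0.0026). Ngfr, the p75 neurotrophin receptor, fell by 1.35 on the log2 scale from 32.2 ± 3.87 to 12.1 ± 1.57 TPM (SD, n = 3 each). Hspd1, the mitochondrial chaperonin HSP60, was at 331, 430 and 410 TPM in siControl and at 158, 168 and 186 TPM in siKctd10 (-1.18, SE 0.11, limma adjusted p = 0.00069). Its partner Hspe1, the co-chaperonin HSP10, was not called (-0.06, limma adjusted p = 0.77), with group levels of 207 to 223 and 184 to 221 TPM. Cox7a2, a subunit of cytochrome c oxidase, fell by 1.11 and Msc, a basic helix-loop-helix repressor also called musculin, by 1.09. Trib2, a Tribbles pseudokinase, fell by 1.08. Prss37, a serine protease-like protein known from testis (-2.02, limma adjusted p = 0.00064), and Hdc, the enzyme that makes histamine (-1.62, limma adjusted p = 0.036), were low genes, at 8.30 ± 1.97 and 10.7 ± 3.72 TPM in siControl. The alpha globin Hba-a2 was called (-1.28), but it has a near-identical copy in Hba-a1, so its estimate is uncertain.

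The contractile genes Acta2 and Myl9 were among the largest single-transcript rises, which BC025446 headed (1.41). Acta2, smooth muscle alpha actin (chr19:34241090-34255590, minus strand, GRCm38), was at 657, 586 and 555 TPM in siControl and at 1596, 1681 and 1409 TPM in siKctd10. Every siKctd10 library was above every siControl library by more than 2-fold (log2 fold change 1.38, SE 0.13, limma adjusted p = 0.00069). Myl9, the regulatory light chain of smooth muscle and non-muscle myosin, was at 76.3, 73.2 and 72.3 TPM in siControl and at 204, 177 and 150 TPM in siKctd10. The siControl libraries were nearly equal and the siKctd10 libraries spread, all above them (1.24, SE 0.11, limma adjusted p = 0.00057). Aif1l, a calcium-binding protein that associates with actin, was at 60.0, 73.4 and 64.0 TPM in siControl and at 165, 164 and 143 TPM in siKctd10 (1.25, SE 0.09, limma adjusted p = 0.00015).

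The other single-transcript rises were of varied function. Adamts5, a protease of cartilage proteoglycan, rose from 11.4 ± 1.06 to 27.7 ± 2.54 TPM (1.21), Cth, which makes cysteine from cystathionine, from 9.63 ± 0.254 to 22.1 ± 3.11 (1.11), and Tigit, a receptor best known from lymphocytes, from 36.7 ± 7.56 to 78.2 ± 3.27 (1.09, SD, n = 3 each). Cavin2, a coat protein of caveolae, was at 56.6, 59.3 and 67.9 TPM in siControl and at 113, 108 and 131 TPM in siKctd10 (0.93, SE 0.10, limma adjusted p = 0.0013). BC025446, AU021092 (1.17), Macc1 (1.01) and Msrb3, a methionine sulfoxide reductase (0.91), completed the 12 largest rises with Ankrd1, described below. The largest changes among genes with several or overlapping transcripts are uncertain. Ppia, which encodes cyclophilin A, was listed at 11.3, 28.1 and 63.6 TPM in siControl and at 1697, 1830 and 1385 TPM in siKctd10 (5.84, SE 1.16, limma adjusted p = 0.032), and its call was lost without any 1 of the 6 libraries and with voom. Wbp1l (3.60) and Uevld (3.45) lost their calls in the same alternatives, and Wbp1l also without the filter on low values, after quantile normalization and with the replicate block. The neuronal stathmin Stmn4 fell by 3.37, from 17.7 ± 2.90 to 0.834 ± 0.469 TPM, and Plet1, whose single transcript overlaps another gene, by 1.74.

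**Figure D2:**
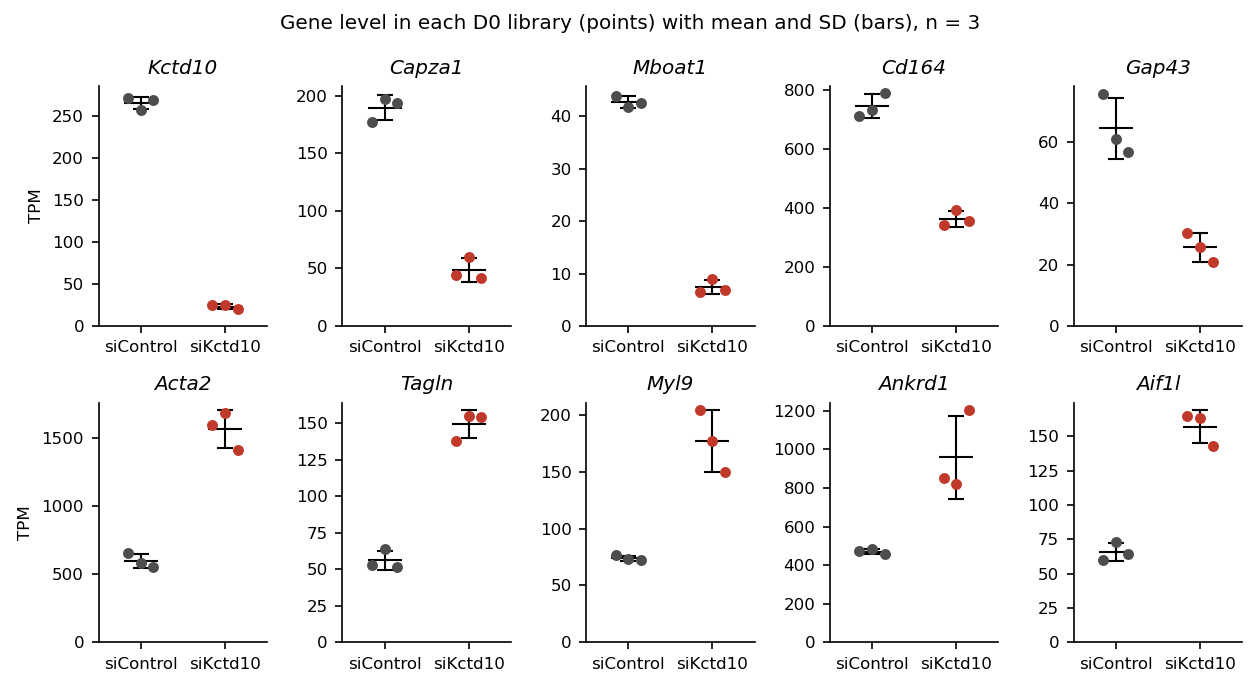
TPM of 10 genes in each of the 3 siControl and 3 siKctd10 libraries at D0 (points), with the mean and SD of each group (black bars) and a y axis from 0 in each panel. In every panel the 2 groups do not overlap, with Kctd10, Capza1, Mboat1, Cd164 and Gap43 lower and Acta2, Tagln, Myl9, Ankrd1 and Aif1l higher in siKctd10.

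The fall of Mboat1, Ube2j1 and Hspd1 was set beside the guide sequence, since an siRNA can also lower transcripts whose 3′ UTR pairs with its seed. The seed of the siKctd10 guide pairs with GACGATA. The sites of the 6 called genes with the largest falls among those matched are shown with 13 bases before and 8 after, in transcript sense, with the match in capitals (GENCODE M21 transcripts, GRCm38).
Mboat1, chr13:30246539-30246545, plus strand: tatttaaaatgtgGACGATAataataat
Ube2j1, chr4:33051435-33051441, plus strand: gcactgagtgctaGACGATAatctccca
Hspd1, chr1:55078131-55078137, minus strand: actggtttcctttGACGATAtataatgg
Trim37, chr11:87218884-87218890, plus strand: ttctttgaaatatGACGATAgaccaaat
Cd164, chr10:41529979-41529985, plus strand: ctagatttccaatGACGATAccctggct
Scd2, chr19:44306266-44306272, plus strand: acagtcccactctGACGATAatgagttc
The longest annotated 3′ UTR of 102 tested genes held this match. Of the 102, 11 were called lower (10.8%, against 1.04% of the 11963 tested genes with an annotated 3′ UTR) and 3 higher (2.94%, against 1.58%), and their median log2 fold change was -0.138 against 0.046. The median difference of the 102 genes from the siControl mean was -0.10, -0.10 and -0.11 in siKctd10 libraries 1, 2 and 3, while that of all genes tested was 0.06, 0.07 and 0.00.

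The size of the fall differed with the match. Of 33 genes whose match was followed by A, 6 were called lower (18.2%) with a median of -0.213. Of 371 genes that matched bases 2 to 7 but not base 8, 5 were called lower (1.35%) with a median of 0.055, and of 300 genes with the 7-base match outside the 3′ UTR only, 10 were lower (3.33%) with a median of 0.025. These 10 include Kctd10 itself, whose full target site holds the match, and Itgb7. Matched 3′ UTRs were long, with a median of 2605 bases, so genes with a 3′ UTR over 1500 bases and no match are the nearer comparison. Of 4882 such genes 40 were called lower (0.819%), with a median of 0.084. For the seed of the non-targeting guide, which pairs with TTTTCTG, 63 of 3346 matched genes were higher (1.88%) and 22 lower (0.658%) in siKctd10 over siControl, with a median of 0.082. These counts are descriptions, and a match is neither a shown site of action nor a cause.

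The matched genes that fell had varied roles. Trim37, a ubiquitin ligase, was at 45.1, 42.2 and 43.5 TPM in siControl and at 19.9, 19.3 and 20.1 TPM in siKctd10 (-1.10, 3 transcripts). Cd164, a sialomucin linked to myoblast fusion, was at 711, 730 and 789 TPM in siControl and at 341, 391 and 354 TPM in siKctd10, with no overlap (-1.04, SE 0.08, limma adjusted p = 0.00016). Scd2, a stearoyl-CoA desaturase, was at 1323, 1287 and 1404 TPM in siControl and at 679, 691 and 697 TPM in siKctd10 (-0.96, SE 0.06, limma adjusted p = 5.9e-05, 2 transcripts). The other 5 were Rab43 (-0.87), Kdelc2 (-0.85), Nsmce3 (-0.80), Tmppe (-0.69) and 4833439L19Rik (-0.64). The 3 matched genes called higher were Insig1 (0.38), Uevld (3.45) and Wbp1l (3.60), the last 2 of them uncertain. Of the 12 single-transcript falls listed above, Mboat1, Ube2j1 and Hspd1 held a match. Capza1 held none, neither the 7-base nor the 6-base match in its 3′ UTR of 2205 bases nor a 7-base match elsewhere in its transcript. Its 3′ UTR did hold a 7-base match to the seed of the siKctd10 passenger strand and 1 to that of the non-targeting guide. Of 1700 genes with a passenger match 15 were called lower (0.882%) and 27 higher (1.59%), with a median of 0.094.

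**Figure D3:**
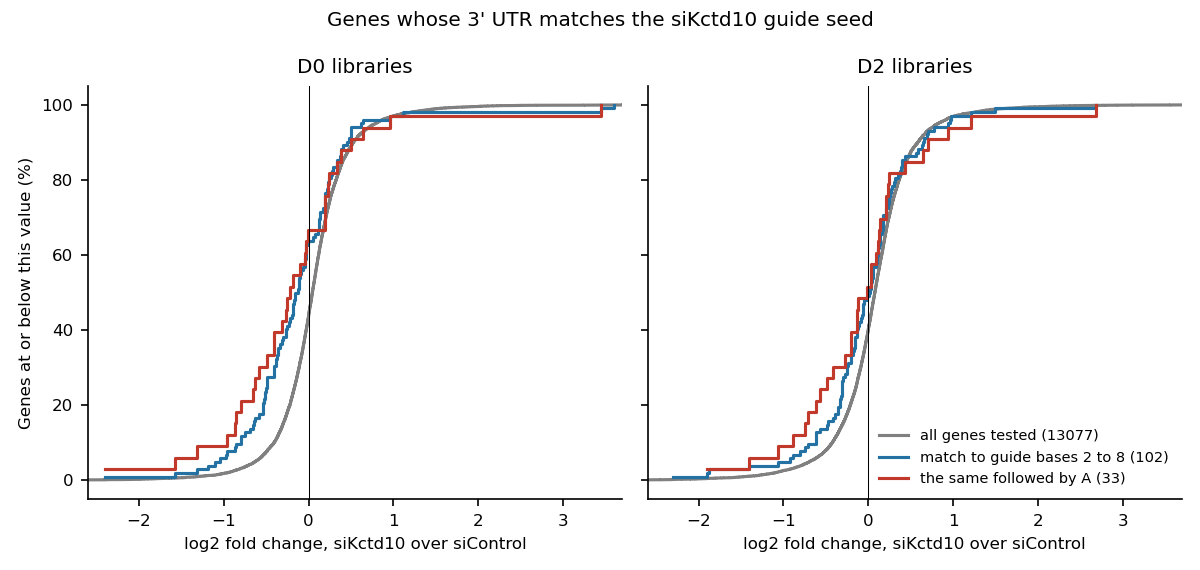
Cumulative share of genes (y axis, %) at or below each log2 fold change (x axis, siKctd10 over siControl), at D0 on the left and D2 on the right. Grey is all 13077 genes tested, blue the 102 genes whose 3′ UTR matches guide bases 2 to 8, and red the 33 whose match is followed by A. At D0 63.7% of the 102 lie below 0, and the blue and red curves run left of the grey curve over most of the negative range.

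Some contractile genes rose in siKctd10 cells, among them Acta2, Tagln and Myl9. Of 21 smooth muscle contractile genes listed, 18 passed the filter on low values, 5 were called higher (1.48% of all genes tested were) and 0 lower (0 at an unadjusted p under 0.05 and 0 with voom), and the median log2 fold change was 0.68 against 0.045 for all genes. Tagln, an actin-bundling protein, was at 52.98, 63.7 and 51.9 TPM in siControl and at 138, 155 and 154 TPM in siKctd10, with no overlap (1.40, SE 0.11, limma adjusted p = 0.00027). It shares exon bases with another transcript. Cnn2, a calponin that binds actin, was at 429, 472 and 426 TPM in siControl and at 709, 747 and 648 TPM in siKctd10 (0.66, SE 0.07, limma adjusted p = 0.0011). With Acta2 and Myl9, described above, and the tropomyosin Tpm1 (0.59, 12 transcripts), these were the 5 called members. The members that define differentiated smooth muscle were at or near 0 in both groups. Myh11, smooth muscle myosin, was listed at 0 in 5 of the 6 libraries, Myocd was at most 0.311 TPM, and Cnn1 ran from 0.625 to 1.69 TPM in siControl and from 2.27 to 3.53 TPM in siKctd10 (0.80, limma adjusted p = 0.14). With only the D0 libraries in the fit 3 members were called. Of the 18, 12 were higher at an unadjusted p under 0.05, against 2071 of all 13077 genes in either direction. The groups did not overlap for 11 of them, against 23.2% of all genes tested.

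Of 33 SRF and MRTF targets tested, 6 were called higher and 0 lower (2 at an unadjusted p under 0.05, 0 with voom), with a median of 0.21. They were the 5 genes just named and skeletal actin Acta1 (0.94, 2 transcripts), which was lost with voom. The immediate early genes of the list stood lower or near 0, with Fos at 0.00 and Egr1 at -0.28, and neither was called. The cytoplasmic actins Actb (0.12) and Actg1 (0.17), the intermediate filament gene Vim (0.12) and Srf itself (0.25, limma adjusted p = 0.28) were not called. The called members thus came mainly from the smaller contractile subset, and 27 of the 33 were not called. The list as a whole also leaned upward, with 15 of the 33 higher at an unadjusted p under 0.05 and 27 above 0. The groups did not overlap for 16 of them, against 23.2% of all genes tested. Voom called 4 of the list and the fit of the D0 libraries alone 3.

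The promoters of 2 risen contractile genes and of Ankrd1 are shown because they hold the letters that SRF or TEAD factors are known to bind. The CArG box, the SRF motif, was searched by name on the 250 bases before the start site, and GGAATG, a TEAD motif, on both strands of the same window. A CArG box cannot contain GGAATG. The windows come from RefSeq (GRCm38.p6), in gene sense, with matches in capitals.
Myl9, chr2:156775214-156775463, plus strand: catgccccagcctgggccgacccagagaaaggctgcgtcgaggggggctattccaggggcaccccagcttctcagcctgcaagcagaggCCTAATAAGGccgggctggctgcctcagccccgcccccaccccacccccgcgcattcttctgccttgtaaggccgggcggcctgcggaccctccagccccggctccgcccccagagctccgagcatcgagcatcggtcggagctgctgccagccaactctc
Cnn2, chr10:79988350-79988599, plus strand: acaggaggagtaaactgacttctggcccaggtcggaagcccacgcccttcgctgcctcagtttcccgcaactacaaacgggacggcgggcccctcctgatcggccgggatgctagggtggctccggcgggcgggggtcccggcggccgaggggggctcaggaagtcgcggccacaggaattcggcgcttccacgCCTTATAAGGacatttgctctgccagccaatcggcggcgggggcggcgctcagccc
Ankrd1, chr19:36119845-36120094, minus strand: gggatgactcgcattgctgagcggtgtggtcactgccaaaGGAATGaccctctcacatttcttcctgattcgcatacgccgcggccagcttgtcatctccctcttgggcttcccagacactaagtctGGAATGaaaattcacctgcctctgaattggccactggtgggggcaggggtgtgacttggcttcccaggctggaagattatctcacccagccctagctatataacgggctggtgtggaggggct
A CArG box was found in 1.62% of 27025 promoters, in 1.51% of the 9868 promoters of tested genes and in 10 of the 28 SRF and MRTF targets with a promoter. Of the 5 called targets with a promoter 3 held a CArG box, Acta1, Cnn2 and Myl9. Acta2, the largest contractile rise among single-transcript genes, held 0 CArG boxes and 1 GGAATG in this window. GGAATG was found in 14.4% of all promoters, in 12.6% of those of tested genes and in 8 of 20 YAP and TEAD targets. Of the 141 promoters of genes called higher 4 held a CArG box (2.84%) and 30 held GGAATG (21.3%), against 3 (3.19%) and 11 (11.7%) of the 94 of genes called lower. The lists were drawn up from known targets, so their promoters are not an independent choice, and a match here is a description of letters.

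YAP and TEAD targets were the list with the next highest median. Of 28 listed, 27 were tested, 7 were called higher and 0 lower (1 at an unadjusted p under 0.05, 1 with voom), with a median of 0.53. Ankrd1, a stretch-induced ankyrin repeat protein, was at 472, 483 and 457 TPM in siControl and at 852, 819 and 1205 TPM in siKctd10. The groups did not overlap and siKctd10 library 3 was the highest (1.00, SE 0.16, limma adjusted p = 0.013), and the call was lost without siControl library 1. Ccn2, connective tissue growth factor, was at 51.4, 52.5 and 48.1 TPM in siControl and at 90.1, 87.8 and 79.5 TPM in siKctd10 (0.75, SE 0.08, limma adjusted p = 0.0011, overlapping another transcript). Its relative Ccn1 was not called (0.36, limma adjusted p = 0.18). Thbs1, thrombospondin 1, rose by 1.79 from 389 ± 118 to 1334 ± 316 TPM, and Vgll3, a TEAD cofactor, by 1.84 from 19.97 ± 16.5 to 61.3 ± 3.93 TPM (SD, n = 3 each, 2 transcripts each). Gadd45b (0.81), Crim1 (0.65) and Lats2 (0.87) were also called. The list count was 2 without siControl library 1, 4 without siControl library 2, 5 without any other D0 library and 1 with only the D0 libraries. Of the 27, 16 were higher at an unadjusted p under 0.05. The groups did not overlap for 18 of them, against 23.2% of all genes tested.

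Of the 30 tested Hippo pathway components, the kinase cascade upstream of YAP, 2 were called higher and 0 lower (0 at an unadjusted p under 0.05, 0 with voom), with a median of 0.38. Yap1 itself was at 124, 136 and 140 TPM in siControl and at 161, 179 and 166 TPM in siKctd10, a small separation without overlap (0.34, SE 0.07, limma adjusted p = 0.039). The call of Yap1 was lost without any 1 of the D0 libraries, after quantile normalization and with voom. The other called member was the kinase Lats2, which is also a YAP target, and voom called 1 member. Of the 30, 11 were higher at an unadjusted p under 0.05 and 28 lay above 0.

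No rise was called among the genes for capping protein and filament ends. Of 24 listed genes for capping protein, tropomodulins and filament ends, 18 were tested, 1, Capza1, was called lower (0.964% of all genes tested were) and 0 higher (1 at an unadjusted p under 0.05, 0 with voom), with a median of -0.02. The other subunits of capping protein were not called. Capza2, the alpha 2 subunit, was at 577, 565 and 591 TPM in siControl and at 550, 549 and 533 TPM in siKctd10 (-0.09, limma adjusted p = 0.47), and the beta subunit Capzb at 239, 201 and 19.1 TPM and 179, 222 and 132 TPM (0.82, SE 1.45, limma adjusted p = 0.84), with siControl library 3 far below the others. Eps8, a capping and bundling protein with 6 transcripts, was at 109, 10.5 and 119 TPM in siControl and at 122, 115 and 122 TPM in siKctd10 (1.18, SE 1.05, limma adjusted p = 0.63). Tropomodulin 3 (Tmod3, -0.14), twinfilin 1 (Twf1, 0.01) and gelsolin (Gsn, -0.01) were not called.

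Of 49 tested genes for branched actin, bundling and turnover, 2 were called higher and 0 lower (2 at an unadjusted p under 0.05, 0 with voom), with a median of 0.08, which was -0.01 with voom. Dstn, destrin, which severs actin filaments, was at 542, 522 and 542 TPM in siControl and at 773, 772 and 723 TPM in siKctd10 (0.50, SE 0.07, limma adjusted p = 0.0047). The crosslinker Actn1 rose by 0.77 (3 transcripts), while the cofilins Cfl1 (0.22) and Cfl2 (-0.36) and profilin 1 (Pfn1, -0.01) were not called. Of the 49, 10 were higher at an unadjusted p under 0.05. Rhob was at 798, 791 and 719 TPM in siControl and at 652, 658 and 532 TPM in siKctd10, without overlap but not called (-0.33, SE 0.09, limma adjusted p = 0.1).

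Kctd10 was the called member of the list of KCTD paralogs and CUL3 ligase genes (29 tested, 1 lower, median -0.01). None was higher (0 at an unadjusted p under 0.05, 0 with voom). Kctd13, a paralog, was at 12.2, 13.7 and 16.4 TPM in siControl and at 15.4, 20.1 and 25.4 TPM in siKctd10 and was not called (0.47, limma adjusted p = 0.4). The paralog Tnfaip1 (-0.94, limma adjusted p = 0.67) and Cul3 (0.83, limma adjusted p = 0.47) varied between libraries, Cul3 from 43.9 to 133 TPM within siKctd10.

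Some genes of cholesterol synthesis rose by small amounts. All 31 listed were tested, 9 were called higher and 0 lower (0 at an unadjusted p under 0.05, 0 with voom), with a median of 0.43, and 29 of the 31 lay above 0. Idi1, which makes the building block dimethylallyl diphosphate, was at 125, 127 and 132 TPM in siControl and at 194, 203 and 173 TPM in siKctd10 (0.56, SE 0.07, limma adjusted p = 0.0047). Msmo1 (0.59) and Cyp51 (0.43), which remove methyl groups from sterols, and the squalene synthase Fdft1 (0.60) were called with it. Insig1, which retains the transcription factor SREBP in the endoplasmic reticulum, was at 162, 160 and 157 TPM in siControl and at 212, 214 and 200 TPM in siKctd10 (0.38, SE 0.07, limma adjusted p = 0.021). Srebf1 (0.48) and the sterol carrier Stard4 (0.49) were also called. Hmgcs1, which makes the precursor HMG-CoA, was not called (0.54, limma adjusted p = 0.4). Of the 31, 15 were higher at an unadjusted p under 0.05. This list was sensitive to the fit. It held 5 called genes after quantile normalization, 4 with voom and 0 with only the D0 libraries. It held 2, 4 and 5 without siControl library 1, 2 and 3 and 4, 3 and 9 without siKctd10 library 1, 2 and 3.

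Of 35 tested genes of fatty acid synthesis and phospholipid remodelling, 3 were called higher and 2 lower, with a median of 0.09. The stearoyl-CoA desaturases moved in opposite directions. Scd1, which overlaps another transcript, was at 539, 556 and 596 TPM in siControl and at 763, 906 and 862 TPM in siKctd10 (0.58, SE 0.08, limma adjusted p = 0.0043), while Scd2, given above, fell by 0.96. Fatty acid synthase, Fasn (0.50), and the desaturase Fads2 (0.52) rose, and Mboat1 was the other fall. The list held 3 called genes without siControl library 1 and 3 without siControl library 2. Relatives of Mboat1 were not called, with Mboat2 at 0.12 and Mboat7 at 0.04.

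**Figure D4:**
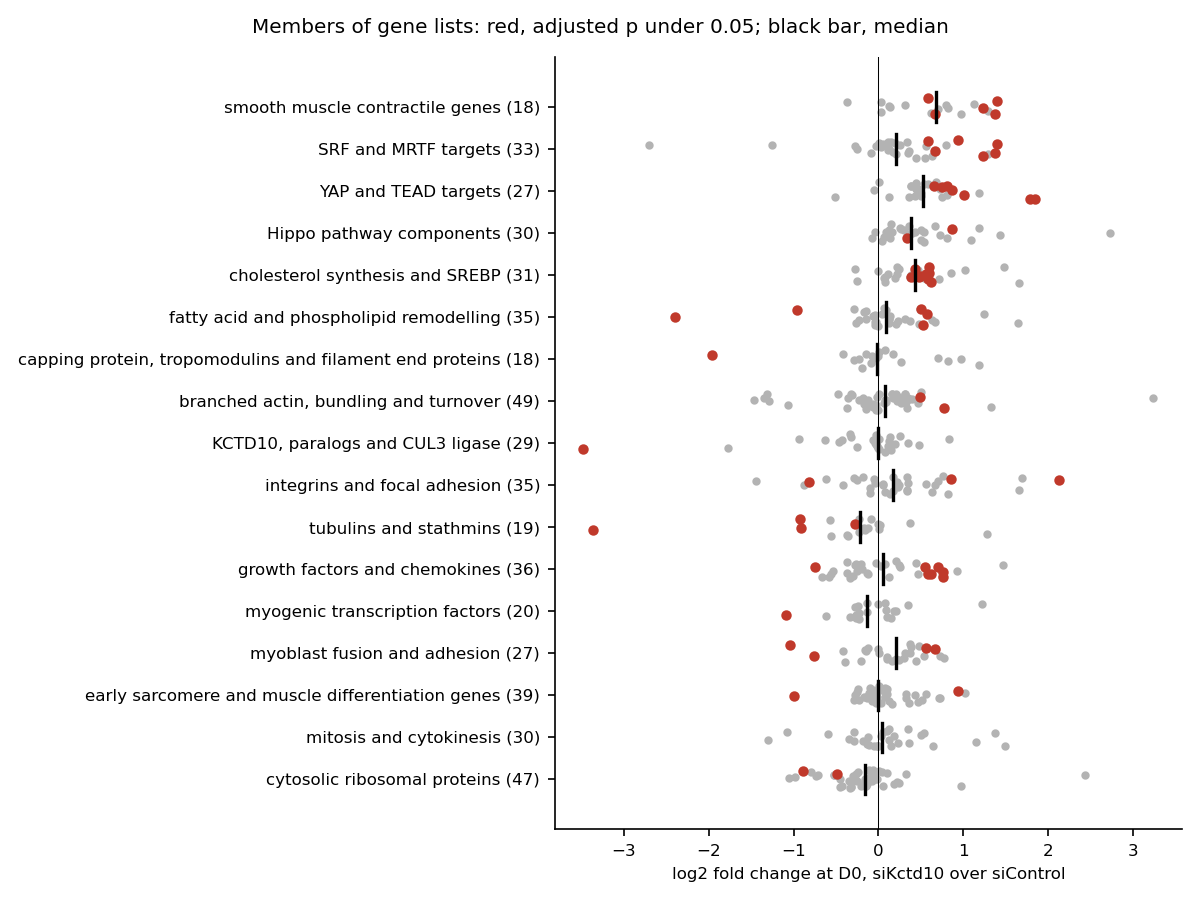
Log2 fold changes at D0 (x axis, siKctd10 over siControl) of the tested members of 17 gene lists, with the number tested in brackets. Each point is a gene, red where the limma adjusted p was under 0.05 and grey otherwise, and the black bar is the median of the list. The medians of smooth muscle contractile genes (0.68), YAP and TEAD targets (0.53) and cholesterol synthesis (0.43) lie right of 0, and that of tubulins and stathmins (-0.22) left of it.

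Few adhesion and matrix genes were called. Of 35 tested integrin and focal adhesion genes 2 were called higher and 1 lower (median 0.17). The integrin alpha 3 chain, Itga3, was at 96.0, 95.9 and 104 TPM in siControl and at 195, 165 and 180 TPM in siKctd10 (0.86, SE 0.09, limma adjusted p = 0.0013, 3 transcripts), and Fblim1, a filamin-binding adapter, rose from 21.7 ± 1.87 to 106 ± 44.8 TPM (2.13). Itgb7, an integrin beta chain of leukocytes, fell by 0.81 from 142 ± 9.49 to 80.2 ± 6.20 TPM (SD, n = 3 each). Integrin beta 1 (Itgb1, -0.42), vinculin (Vcl, -0.25) and zyxin (Zyx, 0.05) were not called. Of 38 collagen and basement membrane genes, Col4a2, a basement membrane collagen, rose from 26.6 ± 0.421 to 50.7 ± 4.08 TPM (0.90), Col6a2 fell by 0.43 and 36 were not called (median 0.11). Of 35 matricellular and proteolytic genes 3 were higher, Thbs1, Adamts5 and the fibulin Fbln2 (0.57), and 1 lower, Ccn3, a matricellular inhibitor of growth, from 9.14 ± 1.33 to 4.61 ± 0.447 TPM (-0.85, median of the list -0.05). This list held 2 called genes without siControl library 1 and 2 without siControl library 2. In the TGF beta and BMP list the corepressor Ski rose (0.33) and 29 of 30 were not called (median 0.10). At an unadjusted p under 0.05 the integrin list held 10 higher and 3 lower genes, and the collagen list 13 and 2. The matricellular list held 7 and 4, and the TGF beta list 5 and 2. The groups did not overlap for 17, 18, 13 and 8 tested members of these lists, against 23.2% of all genes tested.

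Several microtubule genes were lower. Of 19 tested tubulin and stathmin genes 4 were called lower and 0 higher (1 at an unadjusted p under 0.05, 0 with voom), with a median of -0.22. Tubb3, the neuronal beta tubulin, was at 105, 97.1 and 107 TPM in siControl and at 56.4, 52.95 and 52.6 TPM in siKctd10, far apart (-0.92, SE 0.09, limma adjusted p = 0.0012). Stmn2, a microtubule-destabilizing stathmin of neurons, was at 204, 161 and 204 TPM in siControl and at 112, 103 and 83.8 TPM in siKctd10 (-0.92, 2 transcripts). Tuba1a, an abundant alpha tubulin, was at 1748, 1753 and 1749 TPM in siControl and at 1484, 1507 and 1355 TPM in siKctd10, a small and even shift (-0.27, SE 0.06, limma adjusted p = 0.033), whose call was lost without any 1 D0 library. Stmn4, given above, was the remaining called member. The defining neural markers Rbfox3, Snap25 and Sox10 were listed at 0 in all 6 libraries. With only the D0 libraries 2 of the tubulin and stathmin genes were called. Of the 19, 10 were lower at an unadjusted p under 0.05. The groups did not overlap for 12 of them, against 23.2% of all genes tested.

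Few genes of the muscle programme were called at D0. Of 20 myogenic transcription factors 1, Msc, was called lower, and 0 higher (0 at an unadjusted p under 0.05, 0 with voom), with a median of -0.14. Msc was at 21.4, 13.5 and 16.7 TPM in siControl and at 9.54, 7.36 and 5.73 TPM in siKctd10. Myod1 (0.08, SE 0.06, limma adjusted p = 0.55), Myog (-0.23, SE 0.14, limma adjusted p = 0.47) and Myf5 (-0.13) were not called. The fusion proteins Mymk (-0.40, limma adjusted p = 0.27) and Mymx (-0.20, limma adjusted p = 0.75) were low in both groups, at most 5.74 and 1.52 TPM. Of 27 tested fusion and adhesion genes, Cdh2, N-cadherin (0.56), and Vcam1 (0.67) rose and Cd164 and Ccdc141 (-0.75) fell (median 0.21). The 4 calls became 1, 1 and 2 without siControl library 1, 2 and 3 and 1 without siKctd10 library 2. Cdh2 was at 50.6, 54.1 and 51.9 TPM in siControl and at 73.4, 81.8 and 76.9 TPM in siKctd10. M-cadherin, Cdh15, was also above siControl in each siKctd10 library, at 112, 150 and 138 against 84.4 to 101 TPM, and was not called (0.54, limma adjusted p = 0.067). Of 39 sarcomere and differentiation genes Acta1 rose and Ckb, brain-type creatine kinase, fell from 67.4 ± 2.93 to 33.7 ± 5.13 TPM (-0.99), and 37 were not called (median 0.00). Of the 40 listed, 18 were under 1 TPM in all D0 libraries, 3 of these at 0, so a fall of these could hardly show. The median and the number not called therefore say little of such genes.

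Proliferation genes changed in few cases. Of 30 mitosis genes 0 were called (2 lower and 0 higher at an unadjusted p under 0.05, 1 lower with voom), with a median of 0.04 that was below 0 after both other scalings and with voom. Mki67 was at 238, 252 and 296 TPM in siControl and at 276, 271 and 311 TPM in siKctd10 (0.13, limma adjusted p = 0.6). Of 34 replication genes the helicase subunit Mcm5 was lower (-0.74, 3 transcripts, lost without any 1 D0 library), and the median was -0.13. Among G1 and p53 genes Ccnd2, cyclin D2, rose (0.39), and Phlda3 and Plk2, both p53 targets, fell, with -0.38 for each (29 tested, median 0.03), while Cdkn1a was not called (-0.09). None of these 3 kept a call without siControl library 1, without siControl library 2 or with only the D0 libraries.

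Genes that respond to double-stranded RNA or stress were also read. Both groups received an siRNA, so a response shared by both would not show in this comparison. Of the 33 listed interferon and RNA sensing genes, 14 were under 1 TPM in all D0 libraries. Of 21 interferon and RNA sensing genes Gbp2 rose from 4.28 ± 0.529 to 9.96 ± 0.413 TPM (1.06) and the class I gene H2-D1 fell (-0.56), with a median of -0.21. Isg15 (-0.89) and Ifit1 (0.08) were not called. Of 18 genes of the small RNA machinery 0 were called (3 higher and 1 lower at an unadjusted p under 0.05, 0 with voom), with a median of 0.14. In the ER stress and ATF4 list Psph, which makes serine, rose (0.75) and the stress factor Atf3 fell by 0.85 (30 tested, median 0.26). Of 25 heat shock and chaperone genes Hspd1 was the called member, with a median of 0.03.

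Secreted growth factors moved in both directions. Of 36 tested 6 were higher and 1 lower, with a median of 0.05 that was -0.01 after both other scalings. Igfbp5, a binding protein of insulin-like growth factors, was at 1574, 1456 and 1703 TPM in siControl and at 2301, 2438 and 2516 TPM in siKctd10 (0.62, SE 0.06, limma adjusted p = 0.0012, 2 transcripts). The macrophage growth factor Csf1 rose from 185 ± 25.6 to 313 ± 22.8 TPM (0.76), the EGF-family ligand Hbegf by 0.58, the receptor Igf2r by 0.70 and the chemokine Cx3cl1 by 0.55. Areg, another EGF-family ligand, was at 57.8, 66.5 and 66.7 TPM in siControl and at 34.2, 40.1 and 38.4 TPM in siKctd10 (-0.74, SE 0.13, limma adjusted p = 0.021). The number called was 2, 1 and 2 without siControl library 1, 2 and 3, 3, 2 and 7 without siKctd10 library 1, 2 and 3, and 1 with only the D0 libraries. In the Wnt list the antagonist Dkk2 fell from 75.2 ± 5.77 to 45.3 ± 1.87 TPM (-0.72), with 23 of 24 not called (median 0.07). Of 16 Notch genes 0 were called (2 higher and 1 lower at an unadjusted p under 0.05, 0 with voom), with a median of 0.16.

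Housekeeping lists held few called genes. Of 25 glycolysis genes hexokinase 2, Hk2, rose (0.54), of 32 oxidative phosphorylation genes Cox7a2 fell, and of 37 endosome and vesicle genes Cavin2 and the uncertain Uevld rose, with medians of -0.08, -0.01 and 0.08. Of 47 cytosolic ribosomal protein genes 2 were lower, among them Rplp1 (-0.88), and 0 higher (0 at an unadjusted p under 0.05, 0 with voom), with a median of -0.16. At an unadjusted p under 0.05 9 were lower, 10 of the 47 lay above 0, and the median difference from the siControl mean was -0.04, -0.14 and -0.30 in siKctd10 libraries 1, 2 and 3. Over all 13077 genes 2071 passed that unadjusted threshold, in either direction. Rplp1 was at 1052, 827 and 997 TPM in siControl and at 600, 486 and 472 TPM in siKctd10, without overlap.

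Some markers of other lineages were absent and others were expressed in both groups. Adipoq, Plin1, Fabp4, Bglap, Ibsp, Alpl, Ptprc, Adgre1, Pecam1 and Kdr were listed at 0 in all 6 D0 libraries. The adipocyte marker Pparg had a mean of 16.8 TPM in siControl and 17.4 TPM in siKctd10, and the macrophage marker Cd68 1.27 and 1.68 TPM. The osteoblast list summed to 8283, 4358 and 4220 TPM in siControl and to 3798, 3788 and 2808 TPM in siKctd10. Of the marker lists, 5 of 10 adipocyte, 4 of 10 osteoblast, 2 of 10 macrophage and leukocyte and 2 of 14 endothelial and neural genes passed the filter. Plin4, a lipid droplet protein, was the called one, higher by 0.66 at 3.22 ± 0.222 and 5.69 ± 0.496 TPM (SD, n = 3 each). In bulk libraries such as these, fewer cells of a kind and less RNA per cell cannot be told apart.

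The D2 libraries share no sample with D0 and give a second reading of the same siRNA pair, in differentiating cells. The D0 and D2 changes came from the same fit and share each gene's estimate of spread. Calls on both days are therefore not independent. Of the 194 genes higher at D0, 78 were also called higher at D2, which is 40.2% of that list and 21.1% of the 370 genes higher at D2 (2.83% of genes tested). Of the 126 lower, 42 were also lower at D2, which is 33.3% of that list and 16.7% of the 251 lower at D2 (1.92%). Over all called genes the D2 change had the D0 sign for 168 of 194 and 109 of 126, and the opposite call for 2 and 2. The median change was smaller at D2, 0.34 against 0.67 for the higher genes and -0.35 against -0.80 for the lower genes. The genes were chosen by their D0 values, so these medians are a description. The total of 120 shared calls was 54, 59 and 72 without siControl library 1, 2 and 3 and 80, 67 and 87 without siKctd10 library 1, 2 and 3 of D0.

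Several of the leading D0 genes were also called at D2, mostly with a smaller change. Kctd10 (-3.12, SE 0.11), Capza1 (-1.40), Gap43 (-1.60), Cd164 (-0.80), Scd2 (-0.74), Acta2 (0.91), Tagln (0.68), Myl9 (0.82) and Ankrd1 (0.71) were called in the same direction, and for none of them was the difference between days called (limma adjusted p from 0.083 for Tagln to 0.75 for Ankrd1). With 3 libraries a group, an uncalled difference does not show that the changes were equal. Other genes were changed at D0 and much less at D2. Aif1l was at 1.25 at D0 and 0.22 at D2, and Cavin2 at 0.93 and -0.18, each with a called difference between days. Mboat1 (-2.40 at D0 and -1.06 at D2) and Ube2j1 (-1.58 and -0.42) were called lower on both days, also with a called difference. Prss37 was listed at 0 in all 3 D2 siControl libraries, so it could not fall there and its D2 value (0.06) says nothing of the effect of siKctd10. Ccn2, a YAP target that rose by 0.75 at D0, was called lower at D2 (-0.81), and that difference was called as well (limma adjusted p = 0.00071). Areg went the other way, called lower at D0 (-0.74) and higher at D2 (0.60, limma adjusted p = 0.031). All 11 seed-matched genes called lower at D0 were below siControl at D2 as well, 6 of them called, while Uevld, 1 of the 3 matched genes called higher, was called higher again (2.69). The median of the 102 matched genes was 0.011 at D2. The difference between days was called for 97 of 13077 genes (0.742%), 15 of the 194 higher and 18 of the 126 lower at D0.

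**Figure D5:**
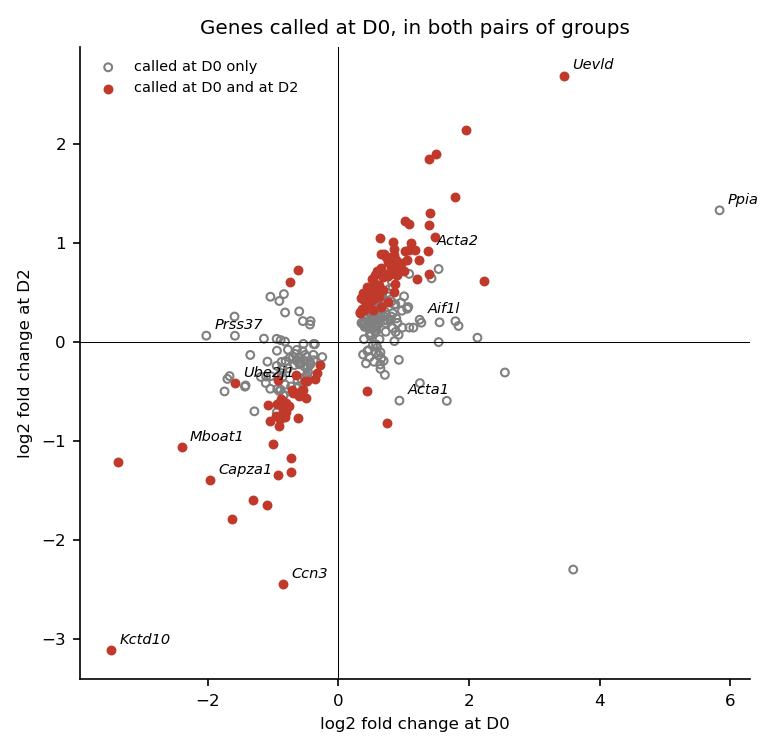
Log2 fold changes of the 320 genes called at D0, siKctd10 over siControl, at D0 (x axis) and at D2 (y axis). Red points are the genes also called at D2 and open circles those called at D0 only. Most points lie in the lower left and upper right quadrants, while Aif1l and Acta1 lie near or across the horizontal line, as does Prss37, which was listed at 0 in D2 siControl.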

How the data were processed

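Poly(A) RNA of C2C12 cells was sequenced. The authors deposited 1 transcript table per library with TPM, FPKM and coverage values estimated by StringTie 1.3.3b, per the file headers. The submitters' processing notes name HISAT, SAMtools, StringTie 1.1.3, DESeq2 and the mm10 build, so the StringTie versions differ between these sources. TPM was used here, and depth is an estimate from coverage and read length.

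The 63759 transcripts were matched to GENCODE M21 genes by identical introns or by at least 50% shared exon bases, which placed 88.0% of them, and TPM was summed per gene. Unmatched transcripts held 3.82 to 4.63% of TPM. Genes with a TPM of at least 1 in at least 3 of the 12 libraries were kept, 13077 in all, of which 666 were listed at 0 in some library. An exact 0 may be a failed estimate. Differences were fitted to log2(TPM + 1), which understates the change of low genes, with limma 3.58.1 (R 4.3.3, trend, robust) as 4 group means over all 12 libraries with 8 residual degrees of freedom, and p-values were adjusted by Benjamini-Hochberg over all 13077 genes. On data simulated with normal noise 200 genes were changed, in equal numbers at log2 sizes of 0.5 and 1. The fit recovered 23% of those at 0.5 and 51% of those at 1, with 1 false call among the genes left unchanged. Normal noise does not reproduce jumps between libraries such as that of Rac1, so this count need not hold for these data. The changed genes were drawn from the better expressed ones, so recovery of low genes is not described. Tables were handled in Python 3.11.15 with pandas 2.3.3.

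Genes named were a set of pathway genes whatever their values, the 12 largest rises and falls among single-transcript genes and the 3 largest of each among other genes, with no overlap and a mean of at least 5 TPM, and up to 4 called members of each list. Other called members and seed-matched genes, such as Ccn2, Fdft1 and Trim37, and genes given as not called are named so that counts are complete and were chosen after their values were seen. The members and lists were chosen with earlier results of these data known. Alternatives were a pseudocount of 0.1, a stricter filter and none, median-ratio and quantile scaling, voom on estimated read pairs, a replicate block, the D0 libraries alone and leaving out each D0 library. A few genes and 1 gene list are not reported here.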

Additional observations from a re-analysis of the deposited data

Results flagged for a closer look

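For 18 named genes the siKctd10 change differed between D0 and D2 in limma's test of the difference between the days. The value given for each is the D2 change minus the D0 change on the log2 scale, and its limma adjusted p over all genes was under 0.05. Falls at D0 that were smaller at D2 gave positive differences, with 1.34 for Mboat1 (D2 change -1.06), 1.16 for Ube2j1 (-0.42), 0.83 for Hspd1 (-0.35) and 0.75 for Trim37 (-0.35), the 4 of them with a guide seed match. The same held for Ngfr at 1.21 (-0.13) and Stmn4 at 2.16 (-1.21). Ngfr was low at D2, at 2.54, 1.95 and 1.93 TPM in siControl, where the log2(TPM + 1) scale leaves little room for a fall.

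Prss37 had a difference of 2.08 but was listed at 0 in all 3 D2 siControl libraries and in 2 of the 3 D2 siKctd10 libraries, so no fall was possible at D2 and the test says nothing of the siRNA there. Falls at D0 with a D2 change above 0 were Itgb7 at 1.11 (0.30), Col6a2 at 0.61 (0.18) and Areg at 1.35 (0.60). Areg was called lower at D0 (-0.74) and called higher at D2 (limma adjusted p = 0.031). Ccn3 fell on both days and by more at D2, with a difference of -1.60 (D2 change -2.45).

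Rises at D0 that were smaller or below 0 at D2 gave negative differences, with -1.02 for Aif1l (0.22), -1.11 for Cavin2 (-0.18), -0.69 for Scd1 (-0.11), -0.66 for Fdft1 (-0.06) and -0.75 for Igfbp5 (-0.13). The difference was -1.53 for Acta1 (-0.59) and -1.56 for Ccn2 (-0.81), the last of which was, like Areg, called in opposite directions on the 2 days.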

How the results depend on the processing

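Without 1 D0 library at a time, the number of called genes ran from 118 to 224 (320 with all), of single-transcript genes from 50 to 90 (128) and of genes called on both days from 54 to 87 (120). With only the D0 libraries in the fit 72 genes and 23 single-transcript genes were called, from fewer libraries. Requiring an 8-base seed match left 6 of the 11 matched genes called lower. Over the 99 called genes followed one by one, no direction reversed in any alternative, 75 kept their call in every alternative that left in all D0 libraries other than the fit on those alone, and 16 lost it with voom. With only the D0 libraries the numbers called were 2 for fatty acid remodelling (5 with all libraries), 2 matricellular genes (4), 2 fusion genes (4) and 0 G1 and p53 genes (3), and median-ratio scaling gave 5 integrin genes instead of 3. Capzb, not called, was at 0.82 with all libraries and ran from -0.33 (without siControl library 3, where its level was lowest) to 1.46 (without siControl library 1).

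The replicate block called 319 genes, 254 of them shared with the fit without it, and 84 of those 99 genes kept their call. Correlations between same-numbered D0 libraries were 0.02 to 0.03, so the numbers were not taken to pair the samples. Between same-numbered siKctd10 libraries of D0 and D2 the correlations were higher, at 0.09, 0.05 and 0.2 for numbers 1, 2 and 3. All 6 D0 libraries correlated best with their own number in the other D0 group, a hint from the data and not from the design. Both groups were read from the same correlations, so the 6 matches are not separate observations. Precision is limited by 3 libraries a group and by TPM estimates without read counts.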
